A study of Homo sapiens with 6 samples.

Results

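Host genes of small RNAs were examined in HK-2, an immortalised human cell line from the proximal tubule of the kidney. Members were defined by name, a choice made with earlier results of these data known, and fell into separate classes. The first class was 25 small nucleolar RNA (snoRNA) host genes, named SNHG with a number or GAS5, EPB41L4A-AS1 or ZFAS1. The other was 32 microRNA host genes, whose names begin with MIR and end in HG. Together they were 57 of the 35007 genes of the table whose names were intact. Both groups were wild-type HK-2 cells, exposed to 1% oxygen over 24 h with 12 h of reoxygenation after it. The vector group carried empty plasmids and the circAASS group carried plasmids for overexpression of circAASS, named as a circular RNA from AASS. Each group had 3 libraries, made with a stranded mRNA kit per the labels' protocols. The labels do not say that repeats were separate cultures, so all p-values rest on the spread among these libraries, which may be technical. The series' design text instead places the sampling 24 h after the treatment.

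Many small RNAs are not transcribed from genes of their own but are cut from longer host transcripts. Small nucleolar RNAs guide the chemical modification of ribosomal RNA, in particles built on fibrillarin for the box C/D kind and on dyskerin for the box H/ACA kind, and the related scaRNAs act on spliceosomal RNA in Cajal bodies. They lie mostly in introns, and the spliced exons of many noncoding hosts are degraded in the cytoplasm by nonsense-mediated decay, which reads them as faulty messages. Several hosts, GAS5 among them, begin with a run of pyrimidines (the TOP motif), which ties the translation of an RNA to growth signals. MicroRNAs are cut from hairpins in their hosts by DROSHA and DICER1, are loaded into Argonaute proteins and recognise messages by the seed, bases 2 to 8. The host's RNA level and that of its small RNA can differ, and an mRNA library measures the host.

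The 3 small nucleolar RNAs shown first come from hosts that were higher in the circAASS group, and illustrate what such hosts carry. Capitals mark the terminal ACA of the box H/ACA RNA and the C box TGATGA and D box CTGA of the box C/D RNAs. These 3 sequences are GENCODE transcripts, and the sequences shown after them are from RefSeq on GRCh38.p14. All are written 5′ to 3′.
SNORA13 in EPB41L4A-AS1, chr5:112161485-112161617, plus strand: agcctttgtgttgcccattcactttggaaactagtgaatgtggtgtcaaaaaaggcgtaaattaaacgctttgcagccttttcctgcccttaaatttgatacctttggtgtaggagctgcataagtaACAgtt
SNORD50B in SNHG5, chr6:85677589-85677658, minus strand: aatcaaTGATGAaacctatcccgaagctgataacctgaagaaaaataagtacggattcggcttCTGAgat
SNORD12 in ZFAS1, chr20:49280683-49280772, plus strand: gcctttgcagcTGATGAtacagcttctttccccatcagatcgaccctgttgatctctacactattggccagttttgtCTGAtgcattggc
By the RefSeq spans, the 9 hosts that rose carried small numbers of such genes: EPB41L4A-AS1 and SNHG8 carried 1 box H/ACA gene each, SNHG3, SNHG7 and SNHG4 carried 2 each, SNHG5 carried 2 box C/D genes, ZFAS1 and SNHG16 carried 3 each, and SNHG12 carried 1 box C/D and 3 box H/ACA genes. None of the hosts of a scaRNA (SNHG10, SNHG20, SNHG21 and SNHG22) passed the test in either direction. GAS5, with 10 box C/D genes in its span, SNHG1, with 8, and SNHG14, with 83, did not pass it either.

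Mature microRNAs of the 9 microRNA hosts that changed are shown next, with the seed in capitals, to make plain that these hosts carry different guides.
miR-1-3p in MIR1-1HG, chr20:62554351-62554372, plus strand: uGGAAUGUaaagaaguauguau
miR-133a-3p in MIR1-1HG, chr20:62564970-62564991, plus strand: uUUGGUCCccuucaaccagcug
miR-100-5p in MIR100HG, chr11:122152275-122152296, minus strand: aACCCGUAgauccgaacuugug
let-7a-5p in MIR100HG, chr11:122146568-122146589, minus strand: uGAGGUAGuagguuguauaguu
miR-125b-5p in MIR100HG, chr11:122099809-122099830, minus strand: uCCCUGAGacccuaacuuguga
miR-22-3p in MIR22HG, chr17:1713914-1713935, minus strand: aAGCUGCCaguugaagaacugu
miR-137-3p in MIR137HG, chr1:98046091-98046113, minus strand: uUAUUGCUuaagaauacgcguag
miR-4697-3p in MIR4697HG, chr11:133898506-133898529, minus strand: uGUCAGUGacuccugccccuuggu
miR-4435 in MIR4435-2HG, chr2:111321061-111321082, minus strand: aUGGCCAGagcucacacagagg
miR-146a-5p in MIR3142HG, chr5:160485372-160485393, plus strand: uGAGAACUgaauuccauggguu
miR-210-3p in MIR210HG, chr11:568112-568133, minus strand: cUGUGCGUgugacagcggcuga
miR-205-5p in MIR205HG, chr1:209432166-209432187, plus strand: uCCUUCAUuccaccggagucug
Of these 12, no pair shares a seed. The let-7 seed GAGGUAG, however, occurred in 6 hosts of the class, and their own values are given with the microRNA hosts.

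Depth was similar across libraries, at 45148425 to 52470055 reads in the vector group and 47384879 to 58179563 in the circAASS group. Levels are RPKM, reads scaled to gene length and library size. Fold changes, circAASS over vector, are differences of log2(RPKM + 0.1) after scaling and understate the change of low genes. limma tested 19350 genes, and adjusted p-values are Benjamini-Hochberg over all of them, with 0.05 as threshold. Of these, 6243 (32.3%) passed, 3091 higher (16.0%) and 3152 lower (16.3%), with a median log2 fold change of -0.01. AASS itself, whose count cannot tell the linear from the circular RNA, had a mean of 1.23 RPKM with vector and 0.88 with circAASS (adjusted p = 0.0677), so it does not check the labels. The epithelial markers KRT8, KRT18, KRT19, EPCAM and PAX8 were present, the means of KRT8 being 127 RPKM with vector and 149 with circAASS, whereas the defining proximal tubule markers LRP2, CUBN, AQP1, SLC34A1, ANPEP and HNF4A were near 0. The 11 listed proximal tubule markers in the table summed to 13.6 to 15.7 RPKM with vector and 9.76 to 11.1 with circAASS. Markers of endothelial cells summed to at most 0.107 RPKM in any library, those of fibroblasts to 3.69 to 4.49 RPKM, and those of immune cells to 102 to 106 RPKM with vector and 78.6 to 101 RPKM with circAASS. Nearly all of the immune sum was CD68, a lysosomal protein gene (means 104 and 88.9 RPKM), while PTPRC, CD3E and ITGAM were near 0. The part of these shifts in the host gene results was not tested. None of the 6 tested markers of endothelial cells, fibroblasts and immune cells passed the limma test (1 was higher at an unadjusted p under 0.05, and 0 passed with precision weights). Epithelial and proximal tubule markers did change by that test. Of 7 tested epithelial markers, 4 were higher and 1 lower (4 and 2 with precision weights). Of 4 tested proximal tubule markers, 1 was higher and 2 lower (1 and 2 with precision weights).

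The small nucleolar RNA hosts moved mainly upward. Of 25 members, 21 had enough reads to be tested. With circAASS, 9 were higher, none was lower and 12 did not pass the limma test, against the 32.3% of all tested genes that passed (16.0% higher). At an unadjusted p under 0.05 the counts were 10 higher and 2 lower, and with precision weights on reads worked out from the RPKM they were 10 and 0. The median log2 fold change was 0.17, with 14 members above 0 and 7 below. After scaling, the groups did not overlap in 12 members, 10 of them higher and 2 lower. Of all tested genes, 47.9% did not overlap, 23.5% higher and 24.4% lower.

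**Figure D1:**
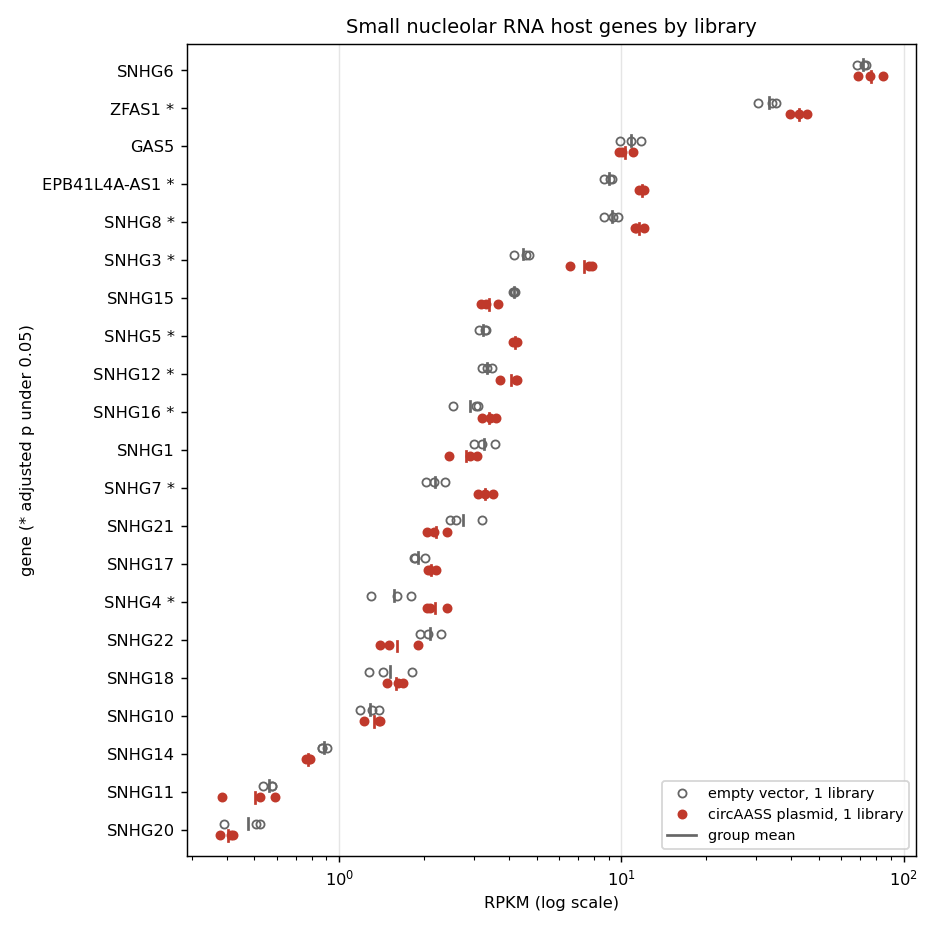
Level of each of the 21 tested small nucleolar RNA host genes in each library, in RPKM on a log axis; open grey points are vector libraries, red points are circAASS libraries, ticks are group means of 3 libraries, and an asterisk marks an adjusted p under 0.05. SNHG6 and ZFAS1 have the highest levels, and the red points of SNHG3 lie from 6.55 to 7.88 RPKM, right of the vector points at 4.15 to 4.70.

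SNHG3, the host of the paired H/ACA RNAs SNORA73A and SNORA73B, had the largest fold change of the class. It measured 4.70, 4.15 and 4.60 RPKM in the vector libraries and 7.70, 6.55 and 7.88 RPKM in the circAASS libraries. The lowest circAASS library lay well above the highest vector library, and the log2 fold change was 0.78 (SE 0.09, adjusted p = 0.00106). SNHG3 lies at chr1:28505980-28510892 on the plus strand (GENCODE 29, GRCh38) and shares 5.9% of its exon bases with RCC1, a gene on the same strand that encodes a nuclear exchange factor for RAN. RCC1 rose too, from a mean of 16.3 to 25.0 RPKM (log2 fold change 0.69, adjusted p = 0.000371), so the reads of this stretch cannot be told apart.

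EPB41L4A-AS1, the noncoding RNA that carries SNORA13, had the smallest adjusted p of the class. Its levels were 9.14, 8.69 and 9.24 RPKM with vector and 11.8, 11.6 and 12.0 RPKM with circAASS, with narrow and separate groups. The log2 fold change was 0.46 (SE 0.05, adjusted p = 0.00094). It begins opposite EPB41L4A at chr5:112160526-112164276, and 49.6% of its exon bases overlap that gene on the other strand. EPB41L4A rose as well, from 2.72 to 3.46 RPKM (log2 fold change 0.41, adjusted p = 0.00822), and since the sources used here do not say whether counting used strand, the reads of EPB41L4A-AS1 are uncertain.

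ZFAS1, the host of the SNORD12 family and the second most abundant member, measured 30.4, 34.3 and 35.4 RPKM with vector and 39.5, 45.6 and 42.4 RPKM with circAASS. The groups did not overlap, and the log2 fold change was 0.42 (SE 0.07, adjusted p = 0.0048). ZFAS1 (chr20:49278178-49295738, plus strand) shares 46.9% of its exon bases with other genes and is uncertain for that reason. ZNFX1, the helicase gene on the opposite strand that shares 11.1% of its exon bases, rose from 25.4 to 29.1 RPKM (log2 fold change 0.27, adjusted p = 0.0118).

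SNHG8, the host of SNORA24, was at 9.74, 8.64 and 9.35 RPKM with vector and at 11.2, 12.1 and 11.2 RPKM with circAASS, a log2 fold change of 0.39 (SE 0.07, adjusted p = 0.00482). SNHG5, which carries SNORD50A and SNORD50B, was at 3.30, 3.14 and 3.29 RPKM with vector and at 4.13, 4.18 and 4.25 RPKM with circAASS, a log2 fold change of 0.43 (SE 0.06, adjusted p = 0.00248). In both genes every circAASS library exceeded every vector library. SNHG7 measured 2.02, 2.16 and 2.37 RPKM with vector and 3.50, 3.27 and 3.09 RPKM with circAASS, a log2 fold change of 0.64 (SE 0.09, adjusted p = 0.00249). Other genes share 31.4% of its exon bases, so its reads are uncertain; FAM69B, antisense to it over 25.2% of them, went the other way, from 0.370 to 0.139 RPKM (adjusted p = 0.019).

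The remaining risers were smaller or less stable. SNHG12 was at 3.20, 3.34 and 3.47 RPKM with vector and 3.70, 4.25 and 4.22 RPKM with circAASS (log2 fold change 0.34, SE 0.07, adjusted p = 0.0115). SNHG4 was at 1.30, 1.61 and 1.79 RPKM with vector and 2.05, 2.10 and 2.40 RPKM with circAASS (log2 fold change 0.53, SE 0.12, adjusted p = 0.0157). Its call was lost without circAASS library 3, at an adjusted p of 0.0524. MATR3, which encodes a nuclear matrix protein and covers 14.0% of SNHG4's exon bases, had a log2 fold change of -0.01 (adjusted p = 0.896). SNHG16, the host of SNORD1A to SNORD1C, measured 2.52, 3.11 and 3.06 RPKM with vector and 3.42, 3.19 and 3.59 RPKM with circAASS (log2 fold change 0.30, SE 0.09, adjusted p = 0.0473). That call was lost whichever of the 6 libraries was left out, with adjusted p-values of 0.0551 to 0.12, and 33.4% of its exon bases are shared with other genes. Of the 9 calls, the other 7 held in all 6 of these fits.

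The most abundant member did not pass the test. SNHG6, the host of SNORD87, took 36.7% to 42.4% of the summed RPKM of the class in each library. It was at 68.5, 72.5 and 73.5 RPKM with vector and 76.1, 84.6 and 69.0 RPKM with circAASS. The third circAASS library fell inside the vector range, and the log2 fold change of 0.17 (SE 0.08) had an adjusted p of 0.161. Without that library the adjusted p was 0.0241, and 36.4% of its exon bases are shared with other genes.

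GAS5, named for its accumulation in growth-arrested cells, was level within its error. It measured 10.8, 9.90 and 11.7 RPKM with vector and 9.84, 11.0 and 10.0 RPKM with circAASS, ranges that overlap. The log2 fold change was 0.00 with an SE of 0.08 (adjusted p = 0.982), and its sign turned with the scaling. SNHG1 had 3.20, 3.00 and 3.56 RPKM with vector and 2.45, 3.08 and 2.90 RPKM with circAASS, overlapping groups with a log2 fold change of -0.14 (SE 0.10, adjusted p = 0.348).

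SNHG15 came nearest to a fall. Its levels were 4.12, 4.20 and 4.16 RPKM with vector and 3.18, 3.65 and 3.32 RPKM with circAASS. All 3 circAASS libraries lay below all vector libraries, and the log2 fold change of -0.22 (SE 0.07) had an adjusted p of 0.0528. Without circAASS library 2 the adjusted p was 0.0276, and the same library decided SNHG22, a scaRNA host (log2 fold change -0.31, adjusted p = 0.106, and 0.0265 without it). MYO5B, which encodes a myosin motor and covers 8.8% of SNHG22's exon bases, fell (log2 fold change -0.60, adjusted p = 0.00321). SNHG14, the long imprinted host of the SNORD115 and SNORD116 clusters, had separate groups at 0.869, 0.905 and 0.868 against 0.782, 0.761 and 0.788 RPKM, but a log2 fold change of -0.10 (adjusted p = 0.54).

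Among the other tested members, SNHG17 had a log2 fold change of 0.22 (adjusted p = 0.0762), SNHG18 of 0.16, SNHG10 of 0.11, SNHG11 of -0.10, SNHG20 of -0.12 and SNHG21 of -0.23. Exon bases shared with other genes reach 72.9% in SNHG21 and 20.1% in SNHG10. SNHG25, SNHG19, SNHG9 and SNHG23 had too few reads to test, at most 23 in any library. Summed over all 25 members, the class held 165.1, 171.0 and 178.3 RPKM with vector and 189.4, 208.1 and 188.1 RPKM with circAASS, sums of which SNHG6 and ZFAS1 made up 59.2% to 62.6%.

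The first transcribed bases of the 9 risers, with GAS5 and SNHG1 for comparison, are shown because several snoRNA hosts are known for a TOP start. The 9 were picked by their calls, so their shared direction follows from that choice. A link between such a start and the change was not tested. Each window runs from 20 bases before to 40 bases into the RefSeq transcript, whose start in these cells was not measured. Capitals mark the longest run of at least 5 pyrimidines (C or T) that begins with C within 10 bases of the start, read on the transcribed strand.
ZFAS1, chr20:49278622-49278681, plus strand: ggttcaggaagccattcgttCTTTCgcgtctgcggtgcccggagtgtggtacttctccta
SNHG5, chr6:85678694-85678753, minus strand: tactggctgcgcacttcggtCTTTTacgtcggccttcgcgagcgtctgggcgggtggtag
SNHG12, chr1:28581834-28581893, minus strand: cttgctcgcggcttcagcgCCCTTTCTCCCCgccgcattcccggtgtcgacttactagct
SNHG4, chr5:139274081-139274140, plus strand: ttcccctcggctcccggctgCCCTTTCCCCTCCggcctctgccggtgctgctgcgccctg
SNHG7, chr9:136728145-136728204, minus strand: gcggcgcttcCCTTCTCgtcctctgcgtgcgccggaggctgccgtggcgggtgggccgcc
SNHG8, chr4:118278742-118278801, plus strand: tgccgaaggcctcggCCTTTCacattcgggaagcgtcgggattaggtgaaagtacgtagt
SNHG16, chr17:76557744-76557803, plus strand: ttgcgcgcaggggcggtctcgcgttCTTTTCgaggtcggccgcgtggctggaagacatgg
SNHG3, chr1:28505923-28505982, plus strand: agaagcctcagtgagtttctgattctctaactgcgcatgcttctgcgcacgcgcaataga
EPB41L4A-AS1, chr5:112160506-112160565, plus strand: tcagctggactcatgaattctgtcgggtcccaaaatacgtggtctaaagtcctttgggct
GAS5, chr1:173869006-173869065, minus strand: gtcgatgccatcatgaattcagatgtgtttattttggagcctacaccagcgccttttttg
SNHG1, chr11:62855846-62855905, minus strand: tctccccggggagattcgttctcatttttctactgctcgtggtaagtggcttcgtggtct
Such a run was present in 7 of the 9 risers (77.8%) and in 33.5% of all 35116 RefSeq promoters. Of the tested hosts that did not pass, 10 had a promoter entry, and 4 of these 10 had a run. SNHG6 and SNHG15, which did not pass either, had no entry and are left out. A start base that is itself the C of such a run was found in 4 of the 9 (ZFAS1, SNHG5, SNHG12 and SNHG4). It was also found in 1 of the 10 (SNHG18, with a run of 22 bases) and in 4.1% of all promoters. Among protein-coding snoRNA hosts, many of them ribosomal protein genes, 16 of 30 (53.3%) had it. These are matches of letters, chosen with the calls known and given without a test, and neither GAS5 nor SNHG1 had a run at the start that RefSeq lists. For GAS5 the RefSeq and GENCODE starts disagree. Its window, from 173869006 to 173869065, lies wholly upstream of its GENCODE span, which ends at 173868882 on the minus strand. The window therefore cannot show whether GAS5 has the TOP start named earlier, although GAS5 is counted among the 10 as lacking a run.

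**Figure D2:**
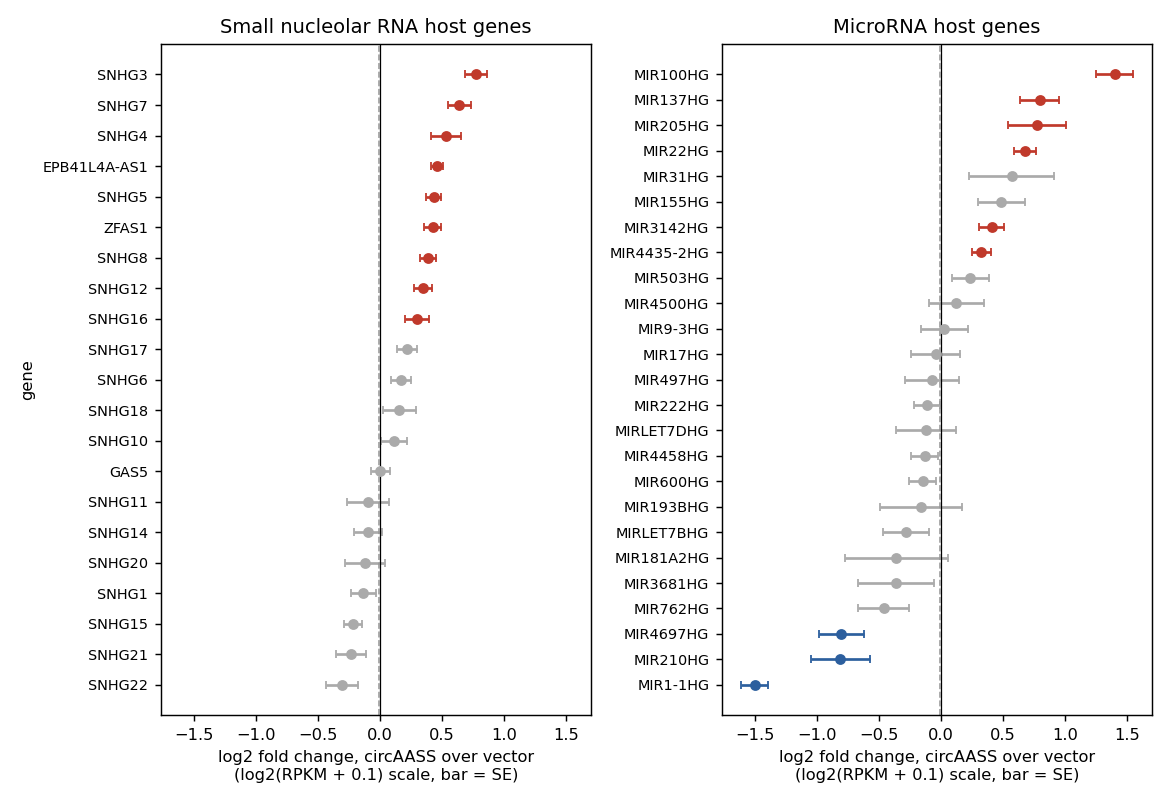
Log2 fold change, circAASS over vector on the log2(RPKM + 0.1) scale, of the 21 small nucleolar RNA hosts (left) and 25 microRNA hosts (right) that were tested, with the SE as bar; red and blue points passed as higher and lower, grey points did not pass, and the dashed line is the median of all tested genes, -0.01. On the left the coloured points are all red and reach 0.78 (SNHG3), while on the right they run from -1.50 (MIR1-1HG) to 1.40 (MIR100HG).

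The microRNA hosts did not share a direction. Of 32 members, 25 were tested. With circAASS 6 were higher, 3 were lower and 16 did not pass, so that 36.0% passed where 32.3% of all tested genes did. One of the 6, MIR100HG, entered the test only through the circAASS libraries, and without it 5 were higher and 3 lower. The median log2 fold change was -0.08, with 11 members above 0 and 14 below. After scaling, 10 members had groups that did not overlap, 7 of them higher and 3 lower. Over all tested genes the share was 47.9%, with 23.5% higher and 24.4% lower. The summed level of the class was 30.8, 30.2 and 31.2 RPKM with vector and 29.3, 29.6 and 29.2 RPKM with circAASS.

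MIR1-1HG, the host of the muscle microRNAs miR-1 and miR-133a at chr20:62550453-62570764, fell most. It was at 5.96, 4.75 and 6.27 RPKM with vector and 1.75, 1.83 and 1.89 RPKM with circAASS. Every circAASS library lay far below every vector library, and the ratio of the group means was 0.322. The log2 fold change was -1.50 (SE 0.11, adjusted p = 0.000244). It went from the most abundant host of the vector group to a level below those of MIR22HG, MIR4435-2HG, MIR3142HG, MIR600HG and MIR503HG.

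MIR100HG, the host of miR-100, let-7a-2 and miR-125b-1 at chr11:122028327-122556721, had the highest fold change of the class, from a very low level. It had 0.0161, 0.0107 and 0.0242 RPKM with vector and 0.193, 0.184 and 0.230 RPKM with circAASS. The annotated length of 19385 bases did not give whole reads, and 5503 bases was the shortest that did. By that length the reads were 4, 3 and 7 against 51, 59 and 60, few with vector. A longer length would give more reads, so these numbers and the filter results that rest on them are uncertain. By these reads MIR100HG passed the filter on low values through the 3 circAASS libraries alone. A gene tested in this way had to differ, so its p is no independent support. The log2 fold change was 1.40 (SE 0.15, adjusted p = 0.000816), and the ratio of the group means was 11.9. Without any one circAASS library it fell below the filter, so its call could be checked in 3 of the 6 leave-one-out fits and held in those 3. With a pseudocount of 0.01 RPKM in place of 0.1 the log2 fold change was 3.06. MIR99AHG, which carries the paralogous set with miR-99a, let-7c and miR-125b-2, was not tested. It had at most 3 reads in a library, by a length found in the same way.

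MIR22HG, the host of miR-22 and the most abundant of the class over all libraries, rose. It measured 4.01, 4.60 and 4.07 RPKM with vector and 5.68, 6.72 and 7.05 RPKM with circAASS, without overlap, for a log2 fold change of 0.67 (SE 0.09, adjusted p = 0.00195). MIR137HG, the host of miR-137, a microRNA known from neurons, was at 0.155, 0.179 and 0.133 RPKM with vector and 0.340, 0.289 and 0.355 RPKM with circAASS. It had a log2 fold change of 0.79 (SE 0.16, adjusted p = 0.00869), and with all genes tested, without a filter on low values, the adjusted p was 0.0508.

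MIR4697HG fell, from 0.686, 0.881 and 0.864 RPKM with vector to 0.501, 0.346 and 0.355 RPKM with circAASS (log2 fold change -0.81, SE 0.18, adjusted p = 0.0136). MIR210HG, the host of miR-210, a microRNA induced by hypoxia-inducible factors, was at 0.458, 0.473 and 0.287 RPKM with vector and 0.234, 0.118 and 0.182 RPKM with circAASS. The groups did not overlap, and the log2 fold change was -0.81 (SE 0.24, adjusted p = 0.0352). This call rests on 16 to 56 reads a library and was lost without circAASS library 2 or 3 or vector library 1 or 2, with an adjusted p of up to 0.103. The core hypoxia-response letters ACGTG, on either strand of the 300-base RefSeq promoter, were present in MIR210HG, in 9 of 25 microRNA hosts with 1 promoter entry (36.0%), in 4 of 20 snoRNA hosts and in 21.4% of all promoters.

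Other hosts that rose did so by less or with less support. MIR4435-2HG was at 2.60, 3.04 and 2.89 RPKM with vector and 3.27, 3.42 and 3.52 RPKM with circAASS (log2 fold change 0.32, SE 0.08, adjusted p = 0.0175), and the call was lost without circAASS library 3 or vector library 1, at an adjusted p of up to 0.0517. MIR3142HG, the host of miR-146a, which restrains NF-kB signalling, was at 2.64, 2.36 and 2.19 RPKM with vector and 2.91, 3.34 and 2.92 RPKM with circAASS (log2 fold change 0.41, SE 0.10, adjusted p = 0.02). Its call was lost without circAASS library 2 or vector library 2 or 3, at up to 0.0597. MIR205HG, the host of the epithelial microRNA miR-205, was at 0.407, 0.240 and 0.234 RPKM with vector and 0.523, 0.670 and 0.429 RPKM with circAASS (log2 fold change 0.77, SE 0.23, adjusted p = 0.0406). Leaving out circAASS library 1 or 2 or vector library 2 or 3 ended that call, at up to 0.109. Of the 9 calls of the class, those of MIR1-1HG, MIR22HG, MIR137HG and MIR4697HG held in all 6 leave-one-out fits.

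**Figure D3:**
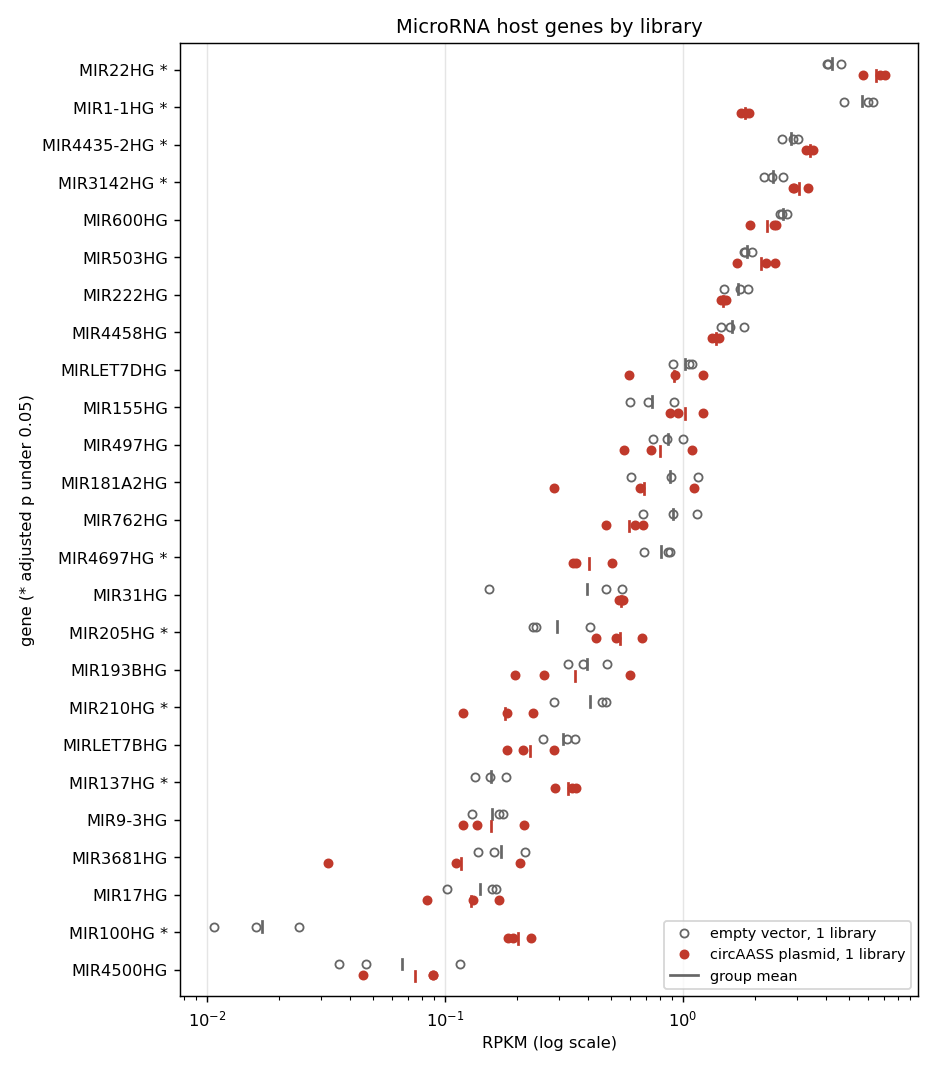
Level of each of the 25 tested microRNA host genes in each library, in RPKM on a log axis, with symbols as for the small nucleolar RNA hosts. The red points of MIR1-1HG sit at 1.75 to 1.89 RPKM, left of the vector points at 4.75 to 6.27, and those of MIR100HG sit at 0.184 to 0.230 RPKM, right of the vector points at 0.0107 to 0.0242.

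The hosts that share the let-7 seed did not move as a set. Besides MIR100HG, MIRLET7BHG had a log2 fold change of -0.28 (adjusted p = 0.273), MIRLET7DHG of -0.12 (0.727), MIR4458HG of -0.13 (0.398) and MIR4500HG of 0.12 (0.709), each adjusted p from limma, and MIR99AHG was not tested. MIR155HG, the host of the immune microRNA miR-155, was at 0.914, 0.711 and 0.596 RPKM with vector and 1.21, 0.956 and 0.884 RPKM with circAASS, with overlapping groups and a log2 fold change of 0.48 (SE 0.19, adjusted p = 0.09). MIR600HG, next in level after MIR3142HG, was at 2.55, 2.73 and 2.61 RPKM with vector and 2.41, 1.91 and 2.45 RPKM with circAASS. Its log2 fold change was -0.15 (adjusted p = 0.324).

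MIR17HG, which carries the miR-17-92 cluster, had a log2 fold change of -0.05 (SE 0.20), MIR222HG, the host of miR-221 and miR-222, of -0.11 (SE 0.10) and MIR497HG, the host of miR-195 and miR-497, of -0.08 (SE 0.22). MIR503HG had 0.24 (SE 0.15, adjusted p = 0.258), and 0.40 with an adjusted p of 0.0309 without circAASS library 3. MIR31HG had 0.57 (SE 0.34) and MIR762HG -0.46 (SE 0.21), neither of which passed. Other genes share 59.6% of the exon bases of MIR762HG, 49.2% of MIR497HG and 40.7% of MIR31HG. BCL7C, which encodes a chromatin remodelling subunit and covers 27.5% of MIR762HG's exon bases, fell from 3.15 to 1.87 RPKM (adjusted p = 0.00384).

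The last tested members, MIR9-3HG (0.02), MIR193BHG (-0.17), MIR181A2HG (-0.36) and MIR3681HG (-0.36), had log2 fold changes that did not pass. MIR5689HG, MIR181A1HG, MIR4300HG, MIR646HG, MIR194-2HG and MIR663AHG, with MIR99AHG, were not tested, having at most 8 reads in any library.

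Of 18 tested snoRNP proteins and assembly factors, 8 were higher and none lower, so that 44.4% passed where 32.3% of all tested genes did, 16.0% of them higher (9 and 0 at an unadjusted p under 0.05, 8 and 0 with precision weights), with a median log2 fold change of 0.16. RPAP3, an HSP90 co-chaperone of snoRNP assembly, rose from 34.0 ± 1.57 to 53.0 ± 1.17 RPKM (SD, n = 3; limma log2 fold change 0.71, adjusted p = 0.000244). NOLC1, the nucleolar chaperone of these particles, rose from 122.5 to 149.5 RPKM, DKC1, which encodes the H/ACA pseudouridine synthase dyskerin, from 96.3 to 119.7, and NOP56, a box C/D core protein, from 69.6 to 86.9. FBL, which encodes the box C/D methyltransferase fibrillarin, did not pass, at 86.0 and 81.4 RPKM.

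Protein-coding genes that also host small nucleolar RNAs gave 8 higher and none lower of 31 tested (25.8%), with a median log2 fold change of 0.14. Of all tested genes, 32.3% passed and 16.0% were higher. At an unadjusted p under 0.05 the list gave 14 higher and 1 lower, and precision weights gave the same 14 and 1 counts. HSPA9, a mitochondrial chaperone, rose from 126.9 to 156.9 RPKM (adjusted p = 0.00185) and RPL23A, a ribosomal protein gene, from 807 to 925 RPKM (adjusted p = 0.00426); DKC1 and NOP56 are in both lists.

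Of 19 nonsense-mediated decay factors, 4 were higher and 2 lower (31.6%, at the 32.3% of all tested genes), with a median of 0.11. SMG5, an adaptor that recruits decay enzymes, rose from 15.8 to 18.6 RPKM (log2 fold change 0.31, adjusted p = 0.00267). SMG6, the endonuclease of the pathway, fell from 7.02 to 5.01 RPKM (log2 fold change -0.41, adjusted p = 0.012). UPF2 had 0.25 and PNRC2 -0.20, both losing the call in some leave-one-out fits. Among 6 regulators of the translation of TOP messages, EIF4EBP2 alone passed (log2 fold change -0.27, adjusted p = 0.0441), and its call was lost in 5 of 6 leave-one-out fits.

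Of 17 tested genes of the microRNA machinery 1 was higher and 4 lower (29.4% passed, close to the 32.3% of all tested genes), with 9 above 0, 8 below and a median log2 fold change of 0.05. SRRT, a partner of the cap-binding complex in microRNA processing, rose from 117.0 to 160.9 RPKM (log2 fold change 0.53, adjusted p = 0.00114). DICER1, the enzyme that cuts precursor hairpins, fell from 6.91 to 4.93 RPKM (log2 fold change -0.41, adjusted p = 0.00558). AGO4 (-0.42) and DDX17 (-0.22) were lower with calls lost in 1 and 4 of the leave-one-out fits, and DROSHA (-0.15) lost its call in all 6. Of 29 tested protein-coding microRNA hosts, 4 were higher and 8 lower (41.4%) with a median of -0.00. SKA2, the host of miR-301a, rose from 65.4 to 81.9 RPKM, whereas SREBF1, the host of miR-33b, fell from 8.46 to 5.89 RPKM. EVL (log2 fold change -0.47) and SLIT3 (-0.80) fell as well.

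**Figure D4:**
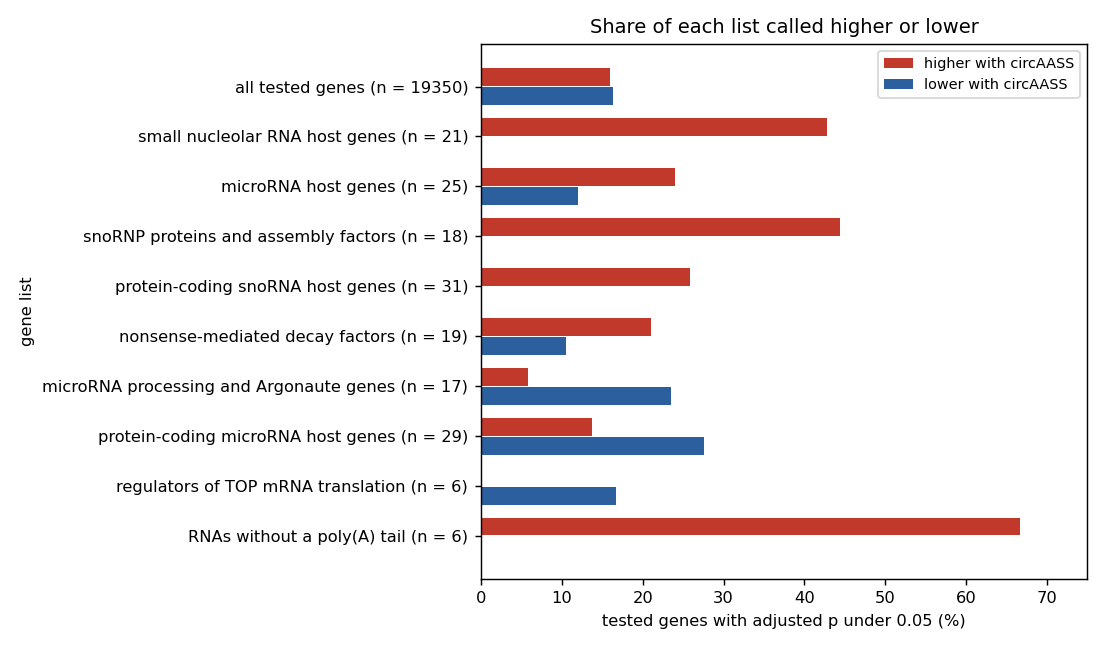
Percentage of the tested genes of each list that were called higher (red) or lower (blue) with circAASS, with the number tested in brackets; bars start at 0. All tested genes stand at 16.0% higher and 16.3% lower; the small nucleolar RNA hosts, the snoRNP proteins and the protein-coding snoRNA hosts have no blue bar.

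RNAs that lack a poly(A) tail differed between the groups in the same libraries. Their listed members summed to 108 to 130 RPKM with vector and 154 to 311 RPKM with circAASS. Of 6 tested, 4 (RN7SK, RN7SL1, RN7SL2 and RNA5-8S5) were higher and none lower, and 3 were higher with precision weights. That is 66.7%, where 32.3% of all tested genes passed and 16.0% were higher. RPPH1 had a log2 fold change of 0.07. RN7SK lost its call in 3 of the leave-one-out fits. The part of this shift in the host gene results was not tested. The table also had entries for 64 of the 125 snoRNA and scaRNA genes that GENCODE 29 places inside the hosts. These held 20.36, 18.58 and 19.44 CPM (reads scaled to library size) with vector and 18.01, 18.05 and 17.37 with circAASS. The hosts' own sums were 379.9 to 409.1 CPM with vector and 434.0 to 464.0 with circAASS. The host sums take in all 25 members, among them GAS5, where GENCODE 29 places no small RNA, so the sets differ. For microRNA genes, 16 of 53 had entries, with 10.99, 10.57 and 10.04 CPM with vector and 8.28, 6.72 and 6.48 with circAASS, scaled to library size alone. MIR762 alone held 54.1% of the reads of the 16 microRNA entries. After the trimmed-mean scaling used for the tests the groups overlapped for the snoRNA entries, the lowest vector library at 18.2 CPM lying below 2 circAASS libraries at 18.8 and 18.6 CPM. All 16 microRNA entries had 10.79, 10.33 and 9.69 CPM with vector and 8.64, 6.92 and 6.5 CPM with circAASS on that scale, without overlap. Those other than MIR762 had 4.72, 4.10 and 4.19 CPM with vector and 4.35, 3.35 and 3.64 CPM with circAASS on that scale, which overlap. Such reads can come from precursors and introns, and a library of this kind does not measure the mature small RNA.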

How the data were processed

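Libraries were made from 3 vector and 3 circAASS samples of HK-2 cells, and groups and repeat numbers came from the sample titles. The deposited values are RPKM, made by the authors for 35035 genes. Trimmomatic 0.36, Subread 1.5.1 with featureCounts, edgeR 3.12.1 and build GRCh38 are named per the submitters' processing notes; for the aligner, the annotation and strand use, the sources used here give nothing. Names of 28 genes had become dates and were left out. Read numbers were recovered from the RPKM using GENCODE 29 exon lengths (22385 of 24697 genes, 90.6%, whole in all libraries within 0.02 reads) or else with the shortest length giving whole reads throughout, which is less certain; 16 of 21 tested snoRNA hosts and 15 of 25 microRNA hosts had the annotated length. Of read numbers from 1 to 20, 78.6% were even, as when mates are counted separately, so counting error exceeds what the reads imply. No library was a copy of another: pairs within a group differed beyond sampling noise.

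RPKM were divided by trimmed-mean factors of the reads (30% of ratios and 5% of levels trimmed), 1.018 to 1.036 with vector and 0.958 to 0.996 with circAASS. Genes reaching 10 reads (scaled to the median library size) in 3 libraries and 15 in all were tested with limma 3.58.1 (R 4.3.3) on log2(RPKM + 0.1), trend and robust, two-sided, with group as the only term. The test was tested on simulated data. Alternatives were other scalings, pseudocounts, filters, a replicate block, precision weights and leaving out each library. Python 3.11, numpy 2.4.6, pandas 2.3.3 and matplotlib 3.10.9 handled tables and figures. The members and lists were chosen with earlier results of these data known. Named are members that passed, the 5 most abundant of each class, GAS5, ZFAS1 and EPB41L4A-AS1, and up to 4 genes of each other list with the smallest p; others were named after their values were seen. The result of a marker gene is not reported here. A gene is called uncertain where other genes of GENCODE 29 share at least 20% of its exon bases. RefSeq small RNA genes were matched to members by GENCODE 29 or RefSeq spans, without regard to strand for snoRNAs and scaRNAs. MicroRNAs known to lie on the other strand were left out of the mature sequences. The small RNA genes summed in CPM were those of GENCODE 29 on the strand of the host.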

Additional observations from a re-analysis of the deposited data

How the results depend on the processing

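The directions of all 18 member calls were kept under every alternative that tested them; 7 of the 9 snoRNA host calls and 2 of the 9 microRNA host calls (MIR1-1HG and MIR22HG) were tested and passed in all 16. MIR4697HG passed in the 15 that tested it and MIR100HG in 12, both falling below the filter on low values in the others. No snoRNA host was lower as reported, and 1 (SNHG15) was under library size alone and 1 (again SNHG15) with a filter of 1 RPKM on the mean level. That filter left 18 snoRNA hosts and 8 microRNA hosts, of which 3 of the latter were higher and 1 lower. Leaving out 1 library gave 8 snoRNA hosts higher in each fit and 0 to 2 lower (2 without circAASS 2), 3 to 5 microRNA hosts higher (3 without circAASS 2) and 2 to 3 lower, and over all genes 2190 to 2791 higher and 2013 to 2906 lower. Library size alone moved the split over all genes to 2159 higher and 4023 lower. Trimmed-mean factors from all genes, tried first and replaced to follow earlier processing of these files, and precision weights were chosen after seeing the data; the former gave 9 and 0 snoRNA hosts and 6 and 3 microRNA hosts. Same-numbered libraries did not deviate together (correlations -0.005, -0.024 and 0.023), and with the replicate block 8 snoRNA hosts were higher and 0 lower, and 7 microRNA hosts were higher and 3 lower. The planned edgeR and DESeq2 tests were not run, because the deposited values are not counts. Depth limits the untested members and, by the reads worked out, MIR100HG with vector. The cause of these shifts was not tested.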
